A study of Mus musculus with 8 samples.

Results

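RNA polymerases I and III make most of the RNA by mass in a growing cell, and the genes described here encode their subunits and the factors that load them on DNA. The genes were chosen by symbol alone, as the Polr1 and Polr3 subunits, Gtf3a, Gtf3c1 to Gtf3c6, Brf1, Brf2, Bdp1, Maf1, Rrn3, Ubtf, Taf1a to Taf1d and Ttf1. This choice found 35 of the 53242 genes in the deposited tables, and all 35 passed the filter on low counts that left 14218 genes for testing. The study compared activated B cells with and without EIF4A1, the RNA helicase that unwinds mRNA during translation initiation.

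Control mice were Eif4a1 +/+ Cd23-cre and 4A1 KO mice were Eif4a1 fl/fl Cd23-cre, all C57BL/6 and 8 to 12 weeks old. Both groups carried Cd23-cre, which deletes floxed alleles from the splenic immature B cell stage onward. B cells were purified from spleen and kept for 24 h on irradiated CD40LB cells with 40 ng/ml IL4. CD40LB is a fibroblast feeder line that presents CD40 ligand and makes the cytokine BAFF, and these cells were removed before RNA extraction. There were 4 libraries of each genotype, with replicates 1 and 2 in batch A, replicates 3 and 4 in batch B, males as replicates 1 and 3 and females as replicates 2 and 4. The study left out replicate 1 of both genotypes for low viability, so fold changes come from replicates 2 to 4 (n = 3 per genotype), while values per library are given for all 8.

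RNA polymerase I transcribes the ribosomal RNA precursor in the nucleolus. Its promoter is bound by UBTF and by SL1, a complex of TBP with the TAF1 proteins, and RRN3 joins the polymerase to SL1. RNA polymerase III makes transfer RNA, the smallest ribosomal RNA and several short nuclear and cytoplasmic RNAs. It is recruited by TFIIIC and TFIIIB, with TFIIIA needed only at the genes of the smallest ribosomal RNA, and it is held back by MAF1, a repressor that growth signalling through mTORC1 keeps inactive. B cells enlarge and raise their ribosome content within the first day of activation, which places these genes among those of interest at this time.

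MYC with its partner MAX binds the E-box CACGTG, and genes of ribosome production are among its known targets, so the promoters were searched for this motif. The motif reads the same on both strands. RefSeq promoter windows on GRCm38.p6, covering 250 bases before to 50 bases after a transcription start, were matched by symbol for 27 of the 35 genes. CACGTG was present for 5 of these 27 (18.5%), against 8.09% of the 27025 genes with a window. Genes without a matched window, which were not searched, included Maf1 and Polr3d, both called increased below. Brf1, Brf2, Polr3a, Polr1f and Polr1h were also among them. Stretches of 30 bases around the motifs that lie upstream of the start are shown because they are the only such matches among the 27 genes, with CACGTG in capitals and each strand read in the direction of its gene:
Rrn3, first motif base at -48, chr16:13780639-13780668, plus strand: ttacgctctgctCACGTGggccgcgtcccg
Rrn3, first motif base at -215, chr16:13780472-13780501, plus strand: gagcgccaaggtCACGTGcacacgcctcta
Polr3c, first motif base at -237, chr3:96727659-96727688, minus strand: gcccgcaagggtCACGTGagtccgcccggc
Polr3gl, first motif base at -194, chr3:96594358-96594387, minus strand: ttctggctccgcCACGTGtctggatgagct
Gtf3c6, first motif base at -56, chr10:40257751-40257780, minus strand: gtgtcgagtctcCACGTGggacccacttac
The fifth gene, Polr3e, had the motif at position 6 of its transcript. These 5 genes did not share a direction in 4A1 KO B cells. In the test described below Polr3gl and Polr3c fell, Polr3e rose, and Rrn3 and Gtf3c6 did not pass. A match describes the letters of a window and says nothing about binding in these cells.

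Libraries held 31727557 to 43210858 counts, and the 6 used for fold changes at least 38488341. The 35 genes had 154 to 22195 counts each and together took 0.309 to 0.368% of a library. The targeted gene Eif4a1 was at 746 to 941 CPM (counts scaled to library size with TMM factors) in control and 559 to 689 in 4A1 KO libraries, with a log2 fold change of -0.44 (SE 0.05, edgeR adjusted p = 0.000115). The floxed allele removes only some exons, while the count takes reads of every exon, so this value does not measure how complete the deletion was. The paper reported a substantial loss of EIF4A1 protein in splenic B cells of such mice. The summed TPM, a level scaled for transcript length and library size, of 10 B cell markers was 12568 to 16941 in control and 13664 to 18289 in 4A1 KO libraries, most of it from Cd74 (7241 to 12631 TPM) and Fcer2a (2771 to 3795). By gene, 3 of these markers rose, 5 fell and 2 did not pass. Of these 10 markers 80% passed and 40% were called, against 53% and 25.3% of all genes tested. Cd79b (-0.89), Cd22 (-0.76), Cd79a (-0.67) and Blk (-0.67), of the B cell receptor and its signalling, were called decreased (edgeR log2 fold changes). Markers of T cells (at most 2.65 summed TPM), macrophages (10.5 to 15.2 in control, 15.6 to 18.5 in 4A1 KO) and feeder fibroblasts (17.9 to 39.6 and 11.6 to 28.3, with Lum and Postn at 0 counts) were low, and the 3 NK cell markers had 0 counts in every library. Of 4 macrophage markers tested 2 rose (50% passed and 25% were called), Adgre1 being called (0.62, edgeR adjusted p = 0.00687). Thy1 (5.75 to 36.4 TPM in control, 5.16 to 23.2 in 4A1 KO) was the largest part of the feeder sum except in control 2. There the collagen gene Col1a1 was higher, at 8.59 TPM. Control 4 had the highest Thy1 but 1.96 TPM of Col1a1, so the sum is an uncertain measure of feeder cells. Of 6 feeder markers tested 50% passed and 33.3% were called. Fn1 was called increased (0.86, edgeR adjusted p = 0.0215), Col3a1 called decreased (-1.57, 0.0437) and Thy1 fell (-0.50, 0.00521). Plasma cell markers summed to 165 to 204 TPM in control and 81.8 to 117 in 4A1 KO, most of it Xbp1 (129 to 170.2 and 67.2 to 89.4). Sdc1, Prdm1 and Xbp1 were called decreased (75% of this list), and Jchain stood at 0.21 (adjusted p = 0.692) with pairs of both signs. All 12 proliferation markers fell (edgeR adjusted p under 0.05, against 26.7% of all genes), and their summed TPM was 2744 to 3789 in control and 1322 to 2338 in 4A1 KO. These differences moved with every comparison below, and their part in them was not tested. In bulk RNA, fewer cells of a type and less RNA per cell cannot be told apart.

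In 4A1 KO B cells the RNA polymerase I and III genes shifted by small amounts in both directions, and the largest shifts lay on the RNA polymerase III side. At an edgeR adjusted p under 0.05, 16 of the 35 genes rose and 7 fell (65.7%), while 53% of all genes tested passed in either direction (26.3% up and 26.7% down). Without the replicate block these counts were 8 and 4, against 35.8% of all genes. On the log2(TPM + 1) scale, 17 of the 23 also passed with the same sign in limma, and Polr1f, Taf1b, Ubtf, Polr3a, Polr3c and Gtf3c4 did not. In limma 11 of the 35 genes rose and 6 fell, against 22.3% and 24.9% of the 12976 genes tested there. Adding the study's threshold of an absolute log2 fold change above 0.5, 5 genes were called (14.3%), against 25.3% of all genes tested. Maf1, Polr3d and Polr3e were called increased, where the share among all genes was 11.6%, and Polr3gl and Polr3k were called decreased, where it was 13.7%. The median absolute log2 fold change was 0.23 over the 35 genes and 0.31 over all genes, and the median log2 fold change was 0.12 over the 35 and 0.01 over all. The largest absolute log2 fold change of the 35 was 0.61. Below, genes are said to rise or fall when the adjusted p is under 0.05, and to be called when the fold threshold is also met.

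**Figure D1:**
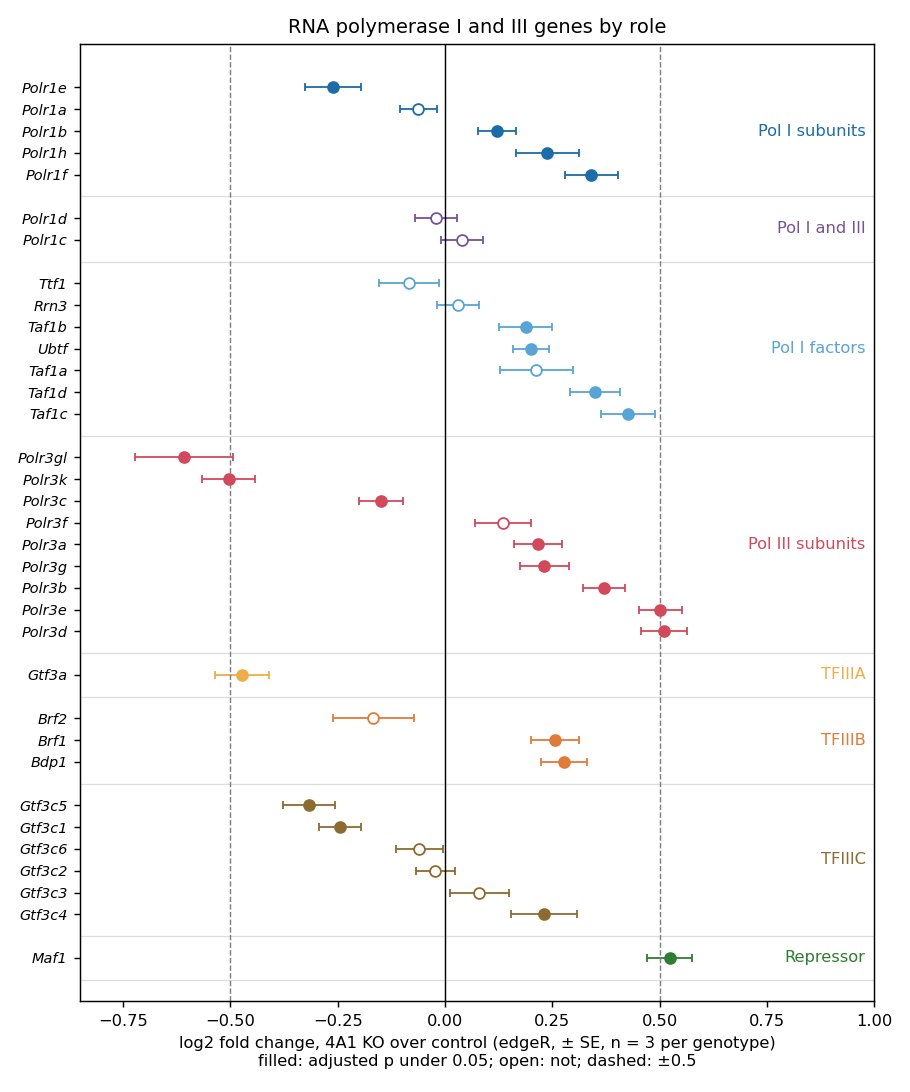
Log2 fold change (x axis, 4A1 KO over control, edgeR, n = 3 per genotype) of 34 of the genes, one row each, grouped and coloured by role, with bars for the standard error. Filled points have an adjusted p under 0.05, dashed lines mark 0.5 and -0.5, and only RNA polymerase III subunits and Maf1 reach them.

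Of the 5 calls, those of Maf1, Polr3d, Polr3e and Polr3k rest on values close to the fold threshold, while Polr3gl lay between -0.65 and -0.52 in the 12 alternatives run for it, of which glmTreat, which tests against the threshold itself, did not call it. Just inside the threshold were Polr3e at 0.502 and Polr3k at -0.504, and just outside it were Gtf3a at -0.473 and Taf1c at 0.426. Of the 35 genes, 28 had differences of the same sign in pairs 2, 3 and 4, against 73.5% of all genes. All 23 genes with an adjusted p under 0.05 had the same sign in replicate 1, which the fit did not use, as did 96.8% of all genes with such a p. Over all 8 libraries, the CPM of control and 4A1 KO did not overlap for 10 genes that were higher and 5 that were lower in 4A1 KO (42.9%), against 36.8% of all genes (17.6% higher and 19.2% lower).

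RNA polymerase I subunits split between directions. Polr1b, the second largest subunit, rose by 0.12 (adjusted p = 0.0434), the stalk subunit gene Polr1f by 0.34 (0.00160) and Polr1h, which encodes the small subunit with RNA cleavage activity, by 0.24 (0.0230), all on the log2 scale in edgeR. Polr1e, whose product pairs with that of Polr1g, fell by 0.26 (0.00863). Of these 5 genes 80% passed at the adjusted p, against 53% of all genes, and none was called.

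Polr1a encodes the largest, catalytic subunit. Its CPM was 264, 277, 304 and 302 in control 1 to 4 and 223, 265, 288 and 292 in 4A1 KO 1 to 4. Each 4A1 KO library was lower than the control of its number but the groups overlapped, and the log2 fold change of -0.06 (SE 0.04, edgeR adjusted p = 0.255) did not pass. For Polr1b the CPM were 230.1, 204, 262 and 249 in control and 252, 225, 283 and 269 in 4A1 KO. The spread between replicate numbers was wider than the difference between genotypes, and all 4 same-numbered differences (0.11 to 0.14 on the log2 scale) pointed up.

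Polr1c and Polr1d encode the pair of subunits that polymerases I and III share. Neither passed the test, with log2 fold changes of 0.04 (edgeR adjusted p = 0.516) and -0.02 (0.737). Polr1d was at 115, 117, 119 and 112 CPM in control and 119.7, 119, 114 and 111 in 4A1 KO, so the ranges of the genotypes were almost the same. An exonic stretch of 381 bases in Polr1d is identical to the processed pseudogene Gm12751, which had at most 230 counts, so its count is uncertain.

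Of the 7 RNA polymerase I factors, 4 rose, 0 fell and 3 did not pass. The share that passed, 57.1%, was near the 53% of all genes, and none was called. Of the SL1 subunits, Taf1c rose by 0.43 (edgeR adjusted p = 0.000544), Taf1d by 0.35 (0.00104) and Taf1b by 0.19 (0.0287), while Taf1a stood at 0.21 (0.0639). Taf1d holds several small nucleolar RNA genes within its exons on the same strand, and Taf1b shares a stretch with the transcribed pseudogene Gm19196 (92.1% identity, at most 137 counts), so the counts of both are uncertain. Ubtf, which bends and marks active ribosomal DNA, was the most counted gene of the 35. It stood at 494, 479.8, 478 and 432 CPM in control and 589, 553, 549 and 496 in 4A1 KO. All 4A1 KO libraries were above all control libraries, and the log2 fold change was 0.20 (SE 0.04, edgeR adjusted p = 0.00348). In the deposited TPM, the groups overlapped and the difference of Ubtf was 0.15 on the log2(TPM + 1) scale and did not pass (limma adjusted p = 0.113).

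Rrn3 encodes the factor through which growth signals reach RNA polymerase I, and it was the gene with E-boxes at 2 positions upstream of its start. Its CPM was 113, 122, 141 and 151 in control and 119, 131, 147 and 146 in 4A1 KO. The libraries of batch B were higher than those of batch A in both genotypes, and the log2 fold change was 0.03 (SE 0.05, edgeR adjusted p = 0.638). Ttf1, which encodes the terminator protein of ribosomal DNA, stood at 23.1, 25.8, 27.9 and 31.95 CPM in control and 22.7, 23.9, 27.7 and 29.2 in 4A1 KO. A log2 fold change of -0.08 (SE 0.07, adjusted p = 0.335) was within the spread.

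RNA polymerase III subunits held 4 of the 5 calls, 2 in each direction, and of the 10 tested 5 rose and 3 fell (40% called and 80% at the adjusted p, against 25.3% and 53% of all genes). Polr3a and Polr3b encode the catalytic core. Polr3a was at 61.3, 51.7, 63.7 and 63.0 CPM in control and 73.2, 64.1, 71.9 and 70.7 in 4A1 KO, a log2 fold change of 0.22 (SE 0.06, edgeR adjusted p = 0.0103). Polr3b stood at 87.9, 95.2, 104.8 and 98.5 in control and 115, 124, 133 and 129 in 4A1 KO, a log2 fold change of 0.37 (SE 0.05, adjusted p = 0.000276). In CPM both genes were higher in each 4A1 KO library than in any control, for Polr3a by a narrow margin. In TPM the groups of Polr3a overlapped (control 4 at 26.2, 4A1 KO 2 at 25.1), and its difference of 0.19 on the log2(TPM + 1) scale did not pass (limma adjusted p = 0.0623).

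The products of Polr3d and Polr3e form a heterodimer that resembles TFIIF of RNA polymerase II and takes part in initiation and termination. Polr3d was at 78.5, 62.4, 77.6 and 69.7 CPM in control and 117, 92.0, 113 and 93.4 in 4A1 KO, and Polr3e at 74.0, 69.4, 83.3 and 72.7 and at 104, 102, 116 and 101. Both genes were higher in all 4A1 KO libraries than in any control. They rose 1.42-fold each, with log2 fold changes of 0.51 (SE 0.05, edgeR adjusted p = 7.99e-05) and 0.50 (SE 0.05, adjusted p = 6.34e-05). The genes of this dimer thus had fold changes that differed by less than the standard error of either.

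Polr3k, on chromosome 2 of GRCm39 from 181506118 to 181537877 and on the plus strand, encodes the small subunit that cleaves RNA in a stalled enzyme and helps it terminate. It moved the other way. Its CPM was 45.0, 48.8, 50.4 and 50.0 in control and 31.6, 34.4, 34.2 and 36.6 in 4A1 KO, with no overlap. The log2 fold change was -0.50 (SE 0.06, edgeR adjusted p = 0.000180). In the deposited TPM it was -0.49 on the log2(TPM + 1) scale (limma adjusted p = 0.00520).

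A trimer of the Polr3c, Polr3f and Polr3g or Polr3gl products opens the promoter. Polr3c fell by 0.15 on the log2 scale (edgeR adjusted p = 0.0365) and Polr3f stood at 0.13 (0.111). Polr3g and Polr3gl are paralogs that occupy the same place in the enzyme, Polr3g being known from stem cells and tumours and Polr3gl from differentiated tissues. Polr3g stood at 43.5, 44.3, 47.5 and 43.7 CPM in control and 48.1, 52.7, 54.5 and 51.9 in 4A1 KO, and rose by 0.23 (SE 0.06, adjusted p = 0.00810). Polr3gl stood at 6.81, 7.85, 6.72 and 6.14 in control and 4.85, 5.01, 4.30 and 4.25 in 4A1 KO, and fell by 0.61 (SE 0.11, adjusted p = 0.00197), the largest absolute log2 fold change of the 35 in this fit. Neither gene had overlapping groups in CPM, while in TPM those of Polr3g overlapped.

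The ratio of the paralogs was compared within libraries on the TPM scale, which accounts for length. Polr3g was 2.11 to 3.21 times as abundant as Polr3gl in control libraries and 4.21 to 5.08 times in 4A1 KO libraries. The log2 ratio was 1.47 ± 0.27 (SD, n = 4) in control and 2.26 ± 0.12 in 4A1 KO, a difference of 0.79 that was positive in all 4 same-numbered pairs (0.57, 1.22, 0.66 and 0.70). An exact two-sided permutation test over the 8 libraries, which does not use the pairing, gave p = 0.0286, the smallest possible with 4 against 4. After Benjamini-Hochberg adjustment over the 2 ratios compared it was 0.0286. Control 2, the only control library with a TPM of Polr3gl above 10 (13.2, against 9.25 to 9.70 in the others), set the largest of these differences, and without replicate 2 the mean difference was 0.65.

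TFIIIB is built from BDP1, TBP and either BRF1, used at transfer RNA genes, or BRF2, used with SNAPc at promoters of the U6 type. Brf1 was at 69.5, 57.9, 65.9 and 64.9 CPM in control and 79.5, 70.5, 81.7 and 73.2 in 4A1 KO. It rose by 0.26 on the log2 scale (SE 0.05, edgeR adjusted p = 0.00404) without overlap of the groups. Brf2 was at 14.3, 12.6, 14.4 and 13.5 CPM in control and 13.4, 12.6, 11.7 and 11.7 in 4A1 KO, with overlap and a log2 fold change of -0.17 (SE 0.09, adjusted p = 0.167). The log2 TPM ratio of Brf1 to Brf2 was 1.85 ± 0.04 (SD, n = 4) in control and 2.35 ± 0.15 in 4A1 KO, a difference of 0.50. The exact permutation test, again without the pairing, gave p = 0.0286, the smallest possible, and 0.0286 adjusted over the 2 ratios. In linear terms Brf1 was 3.52 to 3.75 times as abundant as Brf2 in control and 4.66 to 5.71 times in 4A1 KO. With CPM in place of TPM the difference in the log2 ratio was smaller, at 0.39.

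**Figure D2:**
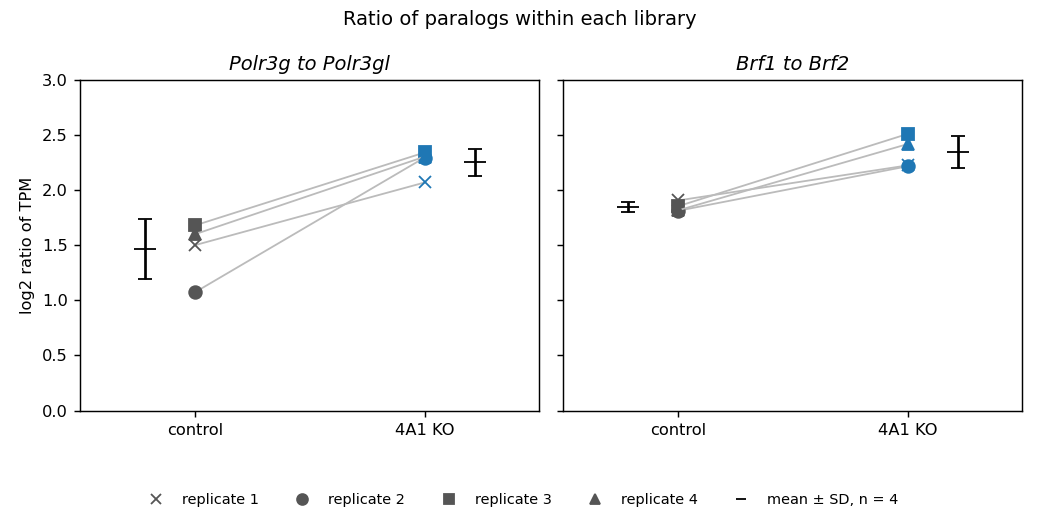
Log2 ratio of TPM (y axis) of Polr3g to Polr3gl and of Brf1 to Brf2 in each library, with symbols for the replicate number, grey lines between same-numbered libraries and black bars for mean ± SD (n = 4). Both ratios were higher in every 4A1 KO library than in any control library.

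Bdp1 varied more between libraries than the BRF genes did. Its CPM was 75.9, 82.2, 101 and 109 in control and 77.4, 104.8, 126 and 123 in 4A1 KO. The groups overlapped with and without replicate 1, and the log2 fold change in replicates 2 to 4 was 0.28 (SE 0.05, edgeR adjusted p = 0.00229). In replicate 1 the difference was 0.03. With all 8 libraries Bdp1 still rose, by 0.22 (adjusted p = 0.0182).

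Gtf3a encodes TFIIIA, the zinc finger protein that binds inside the genes of the smallest ribosomal RNA. It was at 43.7, 49.0, 45.0 and 48.3 CPM in control and 32.9, 37.3, 31.1 and 34.3 in 4A1 KO, and the groups did not overlap. It fell by 0.47 (SE 0.06, edgeR adjusted p = 0.000275), short of the fold threshold. On the log2(TPM + 1) scale it fell by 0.52 (limma adjusted p = 0.0111), past it. Its exons overlap those of Mtif3 on the opposite strand over 58.7% of their length, and the authors counted reads by strand.

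TFIIIC, which recognises the internal promoters of transfer RNA genes, moved in both directions, and 3 of its 6 genes passed (50%, against 53% of all genes). Gtf3c5 fell by 0.32 (edgeR adjusted p = 0.00215) and Gtf3c1, the largest subunit, which contacts the B box, fell by 0.24 (0.00294). Gtf3c4 rose by 0.23 (0.0324). Gtf3c2, Gtf3c3 and Gtf3c6 lay between -0.06 and 0.08 and did not pass, and the count of Gtf3c2 is uncertain because 28.5% of its exonic length is shared on the same strand with Gm29609, which had up to 5718 counts.

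Maf1 lies on chromosome 15 of GRCm39 from 76234798 to 76238580 on the plus strand. Its CPM was 75.3, 61.5, 53.6 and 46.7 in control and 93.8, 89.4, 77.1 and 66.5 in 4A1 KO. Each 4A1 KO library was above the control of its number, but the groups overlapped, since control 1 was higher than 4A1 KO 4. The log2 fold change was 0.52 (SE 0.05, edgeR adjusted p = 6.61e-05), and the differences by pair were 0.53, 0.52 and 0.50 in replicates 2 to 4 and 0.32 in replicate 1. With all 8 libraries it was 0.47 (adjusted p = 4.27e-05), below the fold threshold. An exact two-sided permutation test of its CPM over the 8 libraries, which does not use the pairing, gave p = 0.0571. Exons of Sharpin on the opposite strand overlap 33.0% of the exonic length of Maf1.

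**Figure D3:**
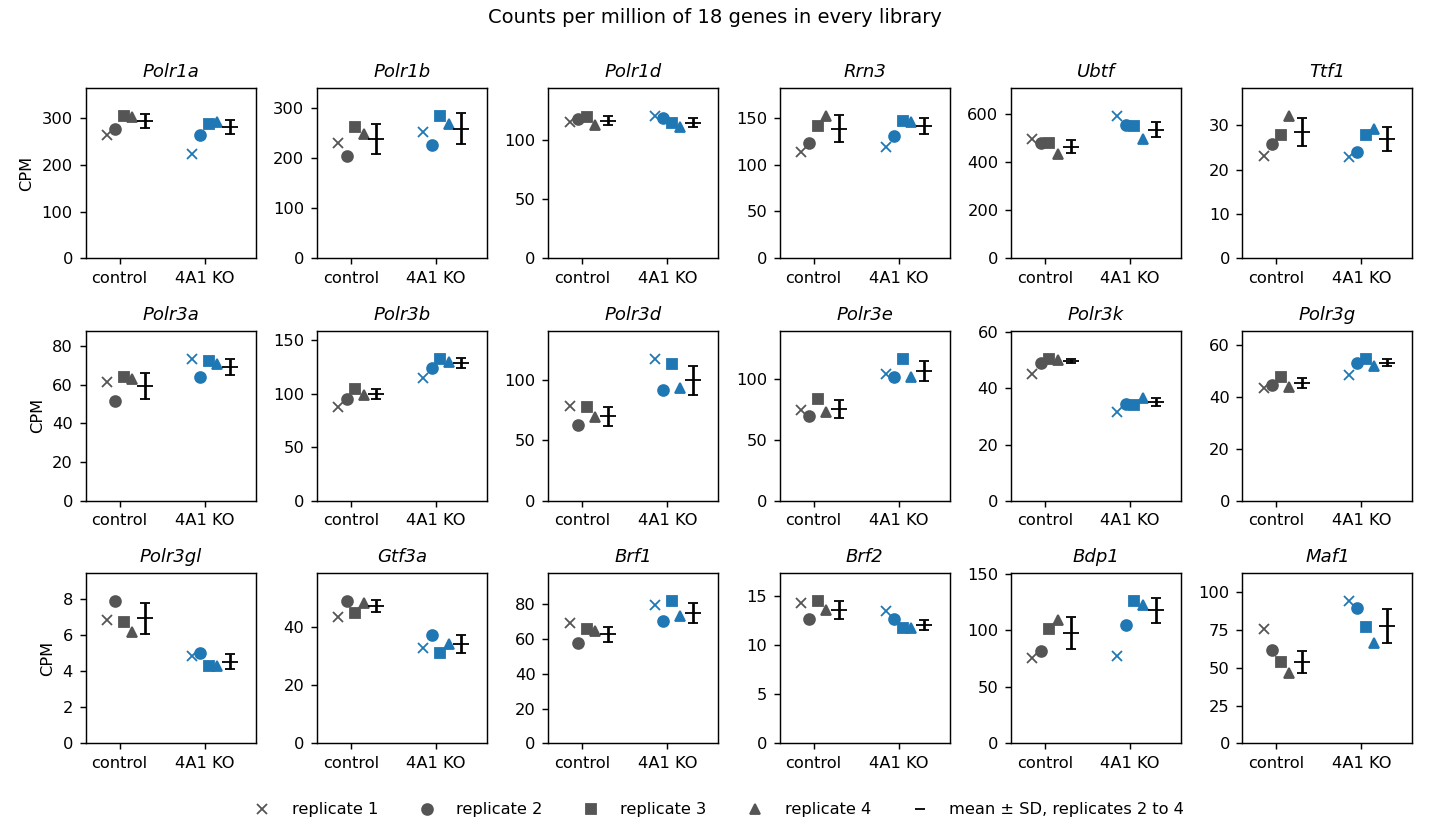
CPM (y axes, from 0) of 18 genes in every library by genotype, with symbols for the replicate number and bars for mean ± SD of replicates 2 to 4. Polr3b, Polr3d and Polr3e were higher and Polr3k, Polr3gl and Gtf3a lower in all 4A1 KO libraries, while Maf1 differed within each pair and overlapped across them.

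Whether the genotype effect differed between batches or between sexes was tested with edgeR's interaction terms over the 8 libraries, and 0 of the 35 genes passed at an adjusted p under 0.05 in either (smallest adjusted p 0.999). At an unadjusted p under 0.05 there were 0 for batch and 1 for sex, against 4.29% and 2.85% of all 14211 genes. One library for each combination of genotype, batch and sex limits what this test can detect.

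Levels per length spanned 29.4-fold in control libraries. The highest means were those of Taf1d (274 ± 35.1 TPM, SD, n = 4), Ubtf (226 ± 13.8), Polr1d and Polr1c, and the lowest were those of Gtf3c3 (11.2), Polr3gl (10.4) and Gtf3c4 (9.32). Of 34 neighbouring pairs in this order, 30 overlapped between control libraries, and the 4 that did not lay among the 6 highest genes, from Taf1d to Polr3c. Subunits of RNA polymerase III alone ran from 10.4 to 78.0 TPM, below the shared subunits Polr1c and Polr1d at 178 and 210.2 TPM. Of the 35 genes, 28 exceeded 19.0 TPM, the median of the 12951 genes with at least 1 TPM in control.

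**Figure D4:**
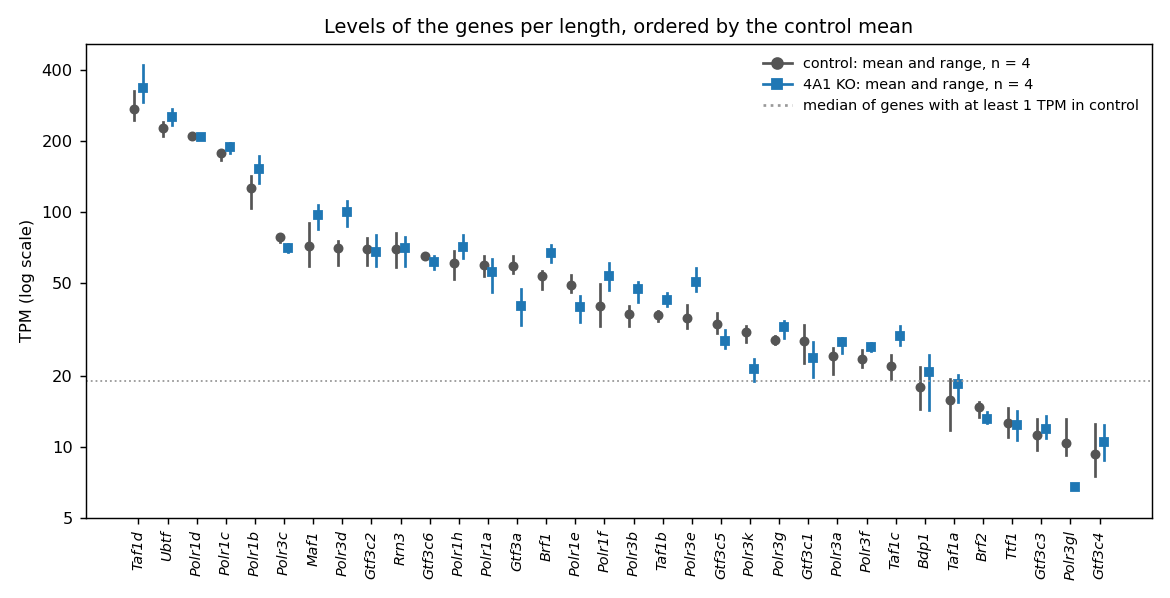
TPM (y axis, log scale) of 34 of the genes, ordered by the control mean, with points for means and lines for the range of 4 libraries per genotype. Levels fell from 274 TPM for Taf1d to 9.32 for Gtf3c4, and most neighbours overlapped.

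Transcripts made by the polymerases themselves were mostly out of reach of these libraries. Of 15 such genes looked for, 12 were found and 2 had enough counts to test. Rpph1, the RNA of RNase P, had 362, 641, 480 and 410 counts in control and 11, 32, 39 and 53 in 4A1 KO, a log2 fold change of -3.56 (SE 0.22, edgeR adjusted p = 1.17e-05). Exons of Ccnb1ip1 on the same strand cover 84.0% of Rpph1, a stretch that is 4.12% of the exonic length of Ccnb1ip1. The counts of Ccnb1ip1 moved with those of Rpph1 (254 to 449 in control, 9 to 39 in 4A1 KO). The TPM of Ccnb1ip1 was 0 in every library, while that of Rpph1 was 51.2 to 92.3 in control and 1.96 to 7.49 in 4A1 KO. From the counts alone, reads of the shared stretch cannot be told apart. Bc1, a short cytoplasmic RNA known from neurons, had 77 to 127 counts in control and 93 to 136 in 4A1 KO (log2 fold change 0.04, adjusted p = 0.885). The RNase MRP gene Rmrp had at most 7 counts, the signal recognition, Y and vault RNA genes at most 5, and the genes of the smallest ribosomal RNA 0. The signal recognition RNA genes Rn7s1 and Rn7s2 were nonetheless listed at 5.31 to 12.6 TPM.

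The 5 subunits that all 3 nuclear polymerases share were not called. Polr2e fell by 0.45 (edgeR adjusted p = 0.000255) and Polr2f by 0.22 (0.00862), and 3 did not pass (40% passed, against 53% of all genes). Of the 8 subunits of RNA polymerase II alone, Polr2a, the largest, was called increased at 0.63 (SE 0.05, adjusted p = 2.02e-05), 4 fell and 3 did not pass (62.5% passed), with Polr2d at -0.47 the lowest. Polr2a lies 61.6 kb from the targeted Eif4a1 on chromosome 11, so a difference of the surrounding chromosome and an effect of the deletion cannot be told apart for it.

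Among 12 partners of RNA polymerase I, none was called, 4 rose and 2 fell (50% passed, against 53% of all genes, and 0% were called, against 25.3%), with Baz2a, of the nucleolar silencing complex, at 0.42 (edgeR adjusted p = 0.000212) and the nucleolar helicase Ddx21 at 0.25 (0.00171). Among 11 partners of RNA polymerase III, 2 rose and 4 fell (54.5% passed and 9.09% were called), Tbp, which rose, and Top1, which fell, being counted among the partners of both polymerases. Snapc5, of the SNAPc complex that acts at BRF2-dependent promoters, was called at -0.95 (SE 0.10, adjusted p = 8.00e-05), at 15.3 to 17.7 CPM in control and 7.69 to 8.97 in 4A1 KO. Snapc2 fell by 0.46 (0.000616) and Snapc4 rose by 0.31 (0.00151). Of 13 regulators, 6 rose and 1 fell, a share of 53.8% against 53% of all genes. Tsc1, an inhibitor of mTORC1 signalling, was called at 0.55 (adjusted p = 0.000125), and the mTORC1 components Mtor and Rptor rose by 0.31 (0.00264) and 0.27 (0.00444). Mapk3, the kinase ERK1, fell by 0.48 (0.000638). Myc was at 302 to 650.2 CPM in control and 427 to 535 in 4A1 KO, with a log2 fold change of -0.01 (SE 0.13, adjusted p = 0.939) and pairs of both signs, while its partner Max rose by 0.35 (0.000732).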

How the data were processed

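RNA of 8 libraries was compared. The authors trimmed reads with Trim Galore 0.6.6, mapped them to GRCm39 with HISAT2 2.1.0 and deposited raw counts per gene from Seqmonk (merged isoforms, strand-specific), and the TPM the authors deposited came from StringTie 2.1.1 (versions from the submitters' processing notes). How reads with several matches were counted, and whether polyadenylated RNA was selected, is not given in the sources used here. Columns of per-sample values without a sample numbered 0.

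Counts of replicates 2 to 4 were tested in R 4.3.3 with edgeR 4.0.16 (filterByExpr, TMM, quasi-likelihood, two-sided) with batch, sex and genotype, and p-values were adjusted with Benjamini-Hochberg over all 14218 genes. A call required an adjusted p below 0.05 with a log2 fold change past 0.5 either way. Standard errors were derived from the fold change and F statistic. CPM were scaled over all 8 libraries, and pair differences used log2(CPM + 0.5). TPM were tested with limma 3.58.1 on log2(TPM + 1) for genes averaging 1 TPM or more. Each library came from a separate mouse. In the 6 libraries batch and sex together form the replicate block. The labels tie same-numbered libraries by batch and sex, and their deviations from the genotype means correlated across genes (r = 0.593, 0.502 and 0.433, against -0.434 to 0.018 for other pairs).

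Coordinates and overlaps came from GENCODE M39, and pseudogenes were matched with blastn at an identity of at least 90% over 200 bases. Code was tested on simulated data. Genes with values in every library were those called plus a chosen list of core subunits and factors. Of the other lists, genes called and the 2 with the largest fold changes were named. Myc, Max, Mtor, Rptor, Snapc4, Tbp, Top1, Cd74, Fcer2a, Thy1, Col1a1 and Jchain were chosen after their values were seen. Members and lists were chosen with earlier results of these data known. Alternatives were 2 other normalizations, DESeq2 1.42.0 with and without shrinkage, no filter, no block, all 8 libraries, glmTreat, limma on TPM with other settings, CPM ratios and leaving out each replicate. One gene counted among the 35 is not reported here by itself.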

Additional observations from a re-analysis of the deposited data

Results flagged for a closer look

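One of 70 sets of 4 libraries (35 genes, 2 genotypes) stood out by a single library, where chance alone gives about 3.5. Polr1c in 4A1 KO had replicate 1 at 127 CPM and the other libraries at 114 to 115, a gap of 0.905 of the range of the group. Replicate 1 was not used for its fold change.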

How the results depend on the processing

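The 3 calls of increased genes became 1 under DESeq2 with shrinkage (Maf1) and with all 8 libraries (Polr3d), 2 under DESeq2 without shrinkage (Polr3e at 0.4994), 0 under glmTreat, and 1 to 3 without one replicate. Without replicate 2, Polr3d (0.49) and Polr3e (0.48) fell short of the fold threshold, and Polr3d (0.4962) did so without replicate 3. The 2 calls of decreased genes became 1 with upper quartile scaling and 1 under DESeq2 with shrinkage (Polr3gl in both), 0 under glmTreat, and 1 to 2 without one replicate, Polr3k falling short without replicate 2 (-0.4993), where Gtf3a (-0.51) was called in its place, or 3 (-0.47). Calls among all genes were 17.5% under DESeq2 with shrinkage, 25.6% with all 8 libraries and 21.1% without the block. Without the replicate block the calls stayed at 3 and 2, but genes at an adjusted p under 0.05 numbered 8 up and 4 down in place of 16 and 7, and glmTreat, which tests against the fold threshold itself, gave 0 and 0. Partners and regulators called (1 up, 1 down) became 0 up with all 8 libraries and under glmTreat, 2 down with all 8 and 1 to 3 down without one replicate (3 without replicate 4), and shared and RNA polymerase II subunits called decreased (0) became 0 to 1 without one replicate (1 without replicate 4). Genes called by limma on TPM were 3 up and 2 down, where the shares among all genes were 8.29% and 11.7%. They became 1 up and 3 down with all 8 libraries, 3 down with a pseudocount of 0.1, 1 down without a filter, and 2 to 3 up and 1 to 3 down without one replicate. The paralog differences were 0.86 and 0.55 in replicates 2 to 4 and 0.65 to 0.86 and 0.44 to 0.55 without one replicate, where an exact permutation test of 3 against 3 cannot go below p = 0.1. Of 216 alternatives for 18 named genes, 214 kept the direction. Polr1d turned to 0.0014 with upper quartile scaling and ran from -0.037 to 0.0064 without one replicate, so it has no direction. The cause of these shifts was not tested. Polr3gl had the fewest counts (154 to 318) and the largest standard error (0.11) of the 35 genes.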
